A study of Mus musculus with 17 samples.

Results

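The genes described here are 10 transcription factor genes of the mouse epidermis, namely Gata3, Gata6, Klf3, Klf4, Klf5, Grhl3, Ovol1, Zfp750, Prdm1 and Trp63. They were chosen by name, as factors known from the upper hair follicle and from keratinocyte differentiation, and all 10 were found among the 48820 genes of the count table. The choice was made with earlier results of these data known, so the share of them called is not an independent test. All 10 also passed the filter on low counts. RNA was sequenced from epidermal cells of C57BL/6 mice aged 3 months that carried EGFP-CreERT2 at Lrig1, Lgr6 or Lgr5 and had received 4-OHT, the form of tamoxifen that switches on the recombinase. The control animals, labelled WT, were Pelo fl/+, and the animals labelled Pelo -/- were Pelo fl/fl, so the controls also carried the recombinase, the treatment and 1 floxed allele. Each library came from 1000 sorted GFP-positive cells, and GFP was driven by the locus that names the population. There were 2 WT Lrig1 libraries and 3 in each of the WT Lgr6, WT Lgr5, Pelo -/- Lrig1, Pelo -/- Lgr6 and Pelo -/- Lgr5 groups. No label ties a replicate to its own animal, and the p-values therefore cover only the spread among these libraries, which may be technical. Pelo encodes Pelota, a factor that releases stalled ribosomes.

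Lrig1 and Lgr6 are known as markers of stem cells in the upper part of the hair follicle, around the isthmus and the opening of the sebaceous gland, and Lgr5 as a marker of the lower bulge and the hair germ. The name upper follicle is used below for the Lrig1 and Lgr6 sorts after these loci. The position of the sorted cells in the skin was not tested. The epidermis and the upper follicle renew themselves as p63-positive basal cells leave the basement membrane and build a barrier. The factors described here act at different steps of that path. GATA3 and GATA6 are zinc-finger factors of follicle lineages and of the sebaceous duct, the Krüppel-like factors KLF3, KLF4 and KLF5 bind CACCC-type sequences, and GRHL3, OVOL1, ZFP750 and PRDM1 act in the switch from dividing to differentiating cells.

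The 250 bases before the RefSeq transcript start are shown for 3 of these genes, so that the CACCC-type letters bound by Krüppel-like factors can be read beside 2 genes of other families, Gata3 and Grhl3, and a Krüppel-like gene, Klf4. The sequences are RefSeq's, on GRCm38.p6, and the table used held 5 of the 10 genes. All 3 windows lie on the minus strand, at chr2:9878601-9878850 for Gata3, chr4:135573633-135573882 for Grhl3 and chr4:55532476-55532725 for Klf4, and are written 5′ to 3′. Capitals mark CCACCC, the CACCC form that Krüppel-like factors bind, or GGGTGG, the same letters on the other strand.
Gata3: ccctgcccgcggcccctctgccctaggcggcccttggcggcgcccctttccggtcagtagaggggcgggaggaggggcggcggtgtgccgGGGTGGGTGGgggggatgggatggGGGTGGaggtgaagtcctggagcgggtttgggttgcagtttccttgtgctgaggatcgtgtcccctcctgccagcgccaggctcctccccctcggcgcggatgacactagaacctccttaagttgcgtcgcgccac
Grhl3: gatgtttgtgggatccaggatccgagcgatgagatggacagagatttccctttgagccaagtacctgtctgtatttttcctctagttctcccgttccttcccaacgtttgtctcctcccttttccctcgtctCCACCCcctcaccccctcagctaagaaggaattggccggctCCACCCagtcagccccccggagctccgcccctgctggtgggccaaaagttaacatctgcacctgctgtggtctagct
Klf4: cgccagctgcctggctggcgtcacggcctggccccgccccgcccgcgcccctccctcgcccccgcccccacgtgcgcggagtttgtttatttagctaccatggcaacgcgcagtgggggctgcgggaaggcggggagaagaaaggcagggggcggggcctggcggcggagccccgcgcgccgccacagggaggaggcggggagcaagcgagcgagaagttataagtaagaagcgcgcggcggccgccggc
The Gata3 window held 3 matches, starting 160, 156 and 136 bases before the start, of which the first 2 overlap, and the Grhl3 window held 2, at 118 and 77 bases. The Klf4 window held 0. Of the other 2 genes in the table, the Klf3 window held 3 and the Prdm1 window 0. Of all 32851 promoter windows of this length, 28.1% held at least 1 match, so a match is common. A search on both strands for AGATAA, a form bound by GATA factors, found 0 matches in these 3 windows, and those letters occurred in 9.99% of all windows. The grainyhead form AACCGGTT also had 0 matches, and occurred in 0.116% of all windows. The RefSeq start of Gata3 used here lies inside the GENCODE M21 gene, whose minus-strand span begins upstream at position 9890034, so this window is not before the start of the longest annotated span. The exons of Gata3 share 155 bases with those of the antisense gene Gm13256. The Grhl3 and Klf4 windows lie before the GENCODE spans of their genes, and the Klf3 window runs past the Klf3 gene start at position 64803388.

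Libraries held between 9647507 and 28098841 counts, with a median of 18937127. The Lgr5 libraries stood apart from the others. Mitochondrial transcripts took 3.69% to 15.3% of their counts, against 4.66% to 7.68% elsewhere, and the predicted gene Gm10800 alone took 2.73% to 16.6% in WT Lgr5 and 1.12% to 6.15% in Pelo -/- Lgr5, against 0.149% to 1.83% elsewhere. Their TMM scaling factors, which correct for the composition of a library, were between 0.990 and 1.91, against 0.688 to 0.964 elsewhere, and replicates within the Lgr5 groups correlated less well (Spearman's rho 0.775 to 0.825 across genes, against 0.861 to 0.885). Levels are given as CPM, counts relative to the TMM-scaled depth of the library. The 12 keratinocyte markers, all detected in every group, summed to 7099 to 10389.5 CPM in WT Lgr5 and 10491 to 16416 CPM in Pelo -/- Lgr5, against 27425 to 39536 CPM in the Lrig1 and Lgr6 libraries. The fibroblast list of 12 genes summed to 2091 to 3974 CPM in the Lgr5 libraries and 445 to 1112 CPM in the others. Postn, which is also a bulge gene, was its most abundant member, and the collagen gene Col1a2 was at 29.05 and 39.1 CPM (means) in WT and Pelo -/- Lgr5 and at 2.22 CPM in Pelo -/- Lrig1. In WT Lrig1 all 12 fibroblast genes were below WT Lgr5, 2 of them called, and so were all 12 endothelial genes, 0 of them called. The medians of these lists were log2 -2.55 and -1.94, beside -0.99 over all genes. Of all genes 35.3% were above WT Lgr5 and 1.99% were called lower. The endothelial list summed to 20.1 to 48.2 CPM in the Lgr5 libraries and 5.42 to 18.6 CPM in the others. Dcn was at 0 in WT Lrig1, and Lum and Twist2 were at 0 in Pelo -/- Lrig1. The melanocyte list of 11 genes summed to 65.3 to 342 CPM in the Lgr5 libraries against 12.7 to 46.9 CPM. Lgr5 RNA was at 276 to 570 CPM in the Lgr5 libraries and at 29.4 CPM or less in every other library. Lrig1 RNA was not highest in its own sort, which in WT had 39.3 and 41.7 CPM against 45.3 to 60.02 CPM in WT Lgr6. Lgr6 RNA was at 79.4 to 197 CPM in WT Lgr6, a range that overlapped the 17.7 to 103 CPM of WT Lgr5. Pelo RNA gave 3.72 and 6.05 CPM in the WT Lrig1 libraries, and 0.483 to 3.82 CPM in Pelo -/- Lrig1. It was at 2.02 to 5.39 CPM in WT Lgr6 against 3.10 to 4.94 CPM in libraries labelled Pelo -/- Lgr6, and at 5.90 to 17.4 CPM in WT Lgr5 against 11.8 to 23.6 CPM in libraries labelled Pelo -/- Lgr5. Its log2 difference between genotypes was -1.49 ± 0.83, adjusted p = 1 in Lrig1, 0.09 ± 0.75, adjusted p = 1 in Lgr6 and 0.31 ± 0.74, adjusted p = 1 in Lgr5. Counts over the whole gene do not show whether the floxed part was lost, so the genotype is used below as the label gives it.

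Per kb of exon, the scale on which genes can be compared with each other, Klf4, Gata3 and Trp63 were the most abundant of the 10 in all 6 groups. In WT Lrig1, Klf4 was at 379.6 ± 44.4 CPM per kb (mean ± SD, n = 2), Gata3 at 348 ± 33 and Trp63 at 135 ± 20.3. Klf4 and Gata3 did not differ there beyond their spread, and both stood above Trp63. Next came Klf5 at 21.5 ± 2.02, Klf3 at 17.1 ± 5.52, Grhl3 at 9.62 ± 0.125, Zfp750 at 8.78 ± 9.59 and Gata6 at 7.26 ± 0.97 CPM per kb, where the Zfp750 libraries spanned the levels of its neighbours. Ovol1 was at 1.52 ± 0.714 and Prdm1 at 0.0731 ± 0.0789 CPM per kb. The order was different in WT Lgr5, where Gata3 came after Trp63, with 36.7 ± 12.9 CPM per kb (n = 3) against 98.1 ± 31.2. In that group Klf5, at 0.731 ± 0.41 CPM per kb, lay among Grhl3, Prdm1 and Gata6 (0.921 ± 0.543, 0.835 ± 0.72 and 0.627 ± 0.266), levels that overlapped each other.

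**Figure D1:**
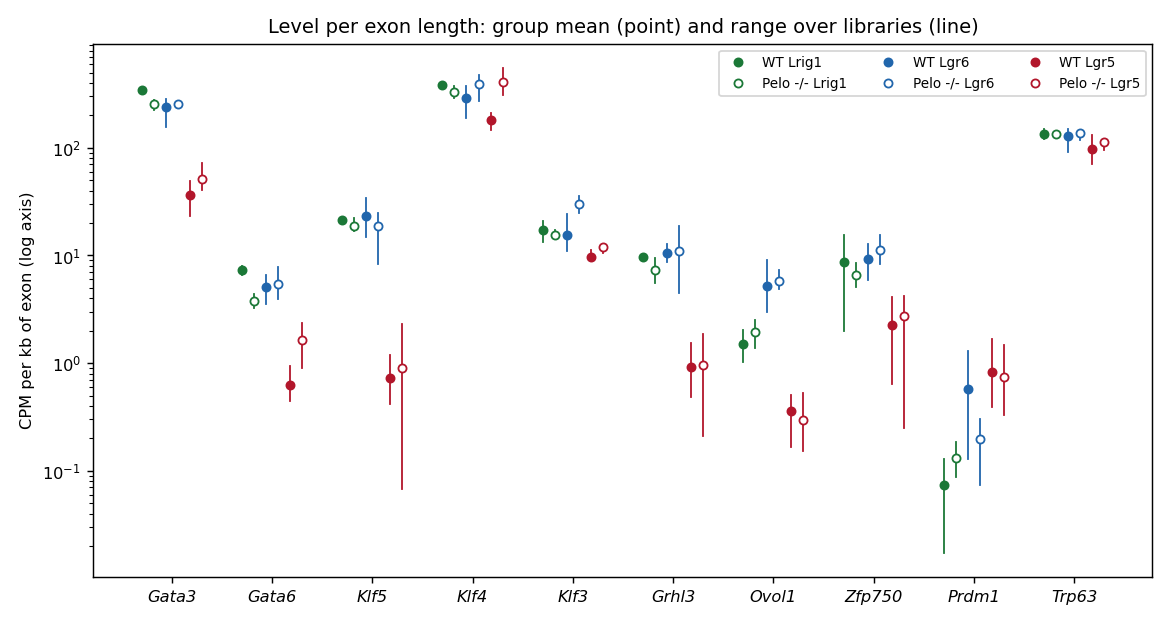
Levels of the 10 genes in CPM per kb of exon (log axis), 1 point for each group mean and a line from the lowest to the highest library; filled points are WT and open points Pelo -/-. Klf4, Gata3 and Trp63 lie at the top in every group, and Gata3, Gata6, Klf5, Grhl3 and Ovol1 are lower in both Lgr5 groups than in the Lrig1 and Lgr6 groups.

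The comparison of stem cell populations asked which of these factors differ between the upper follicle sorts and the Lgr5 sort. In WT libraries 4 of the 10 genes were called higher in Lrig1 than in Lgr5 at an adjusted p under 0.05 in edgeR's quasi-likelihood test (Gata3, Gata6, Klf5 and Grhl3), where 9.09% of the 30405 genes tested were called higher and 1.99% lower (11.1% in all). In Lgr6 against Lgr5, 5 were called higher, the same 4 and Ovol1, beside 10.6% of all genes higher and 1.57% lower (12.2% in all). In libraries labelled Pelo -/-, 4 were called higher in Lrig1 than in Lgr5 (Gata3, Klf5, Grhl3 and Ovol1), beside 5.77% of all genes higher and 7.85% in either direction, and 6 in Lgr6 (Gata3, Gata6, Klf3, Klf5, Grhl3 and Ovol1), beside 7.23% higher and 9.95% in either direction. No member was called lower in these 4 comparisons, in which 2.08% and 2.72% of all genes were called lower in the Pelo -/- pair. The WT pair shares the 3 WT Lgr5 libraries and the Pelo -/- pair the 3 Pelo -/- Lgr5 libraries, while the WT and Pelo -/- comparisons share no library. The median log2 difference of the 10 genes was 2.01 in WT Lrig1 and 2.35 in WT Lgr6 against WT Lgr5, beside medians over all genes of -0.99 and -0.49. It was 1.22 and 1.87 in the Pelo -/- libraries, beside -0.64 and -0.61. When only genes with a mean of at least 5 CPM were fitted, the median over all genes moved to -0.057 in WT Lrig1 and -0.038 in WT Lgr6, and the differences of the called members were smaller. In WT Lrig1 the log2 differences were then 2.58 for Gata6, 2.5 for Gata3, 4.04 for Klf5 and 2.38 for Grhl3, and in WT Lgr6 they were 2.06, 1.93, 4.12 and 2.48, with 2.89 for Ovol1. Klf5 in Pelo -/- Lgr6 was then at 3.76, and these 10 values were still called. In bulk samples like these, fewer cells of a type and less RNA per cell cannot be told apart, and the part of the marker sums, mitochondrial shares and Gm10800 shares of the Lgr5 libraries in these differences was not tested.

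**Figure D2:**
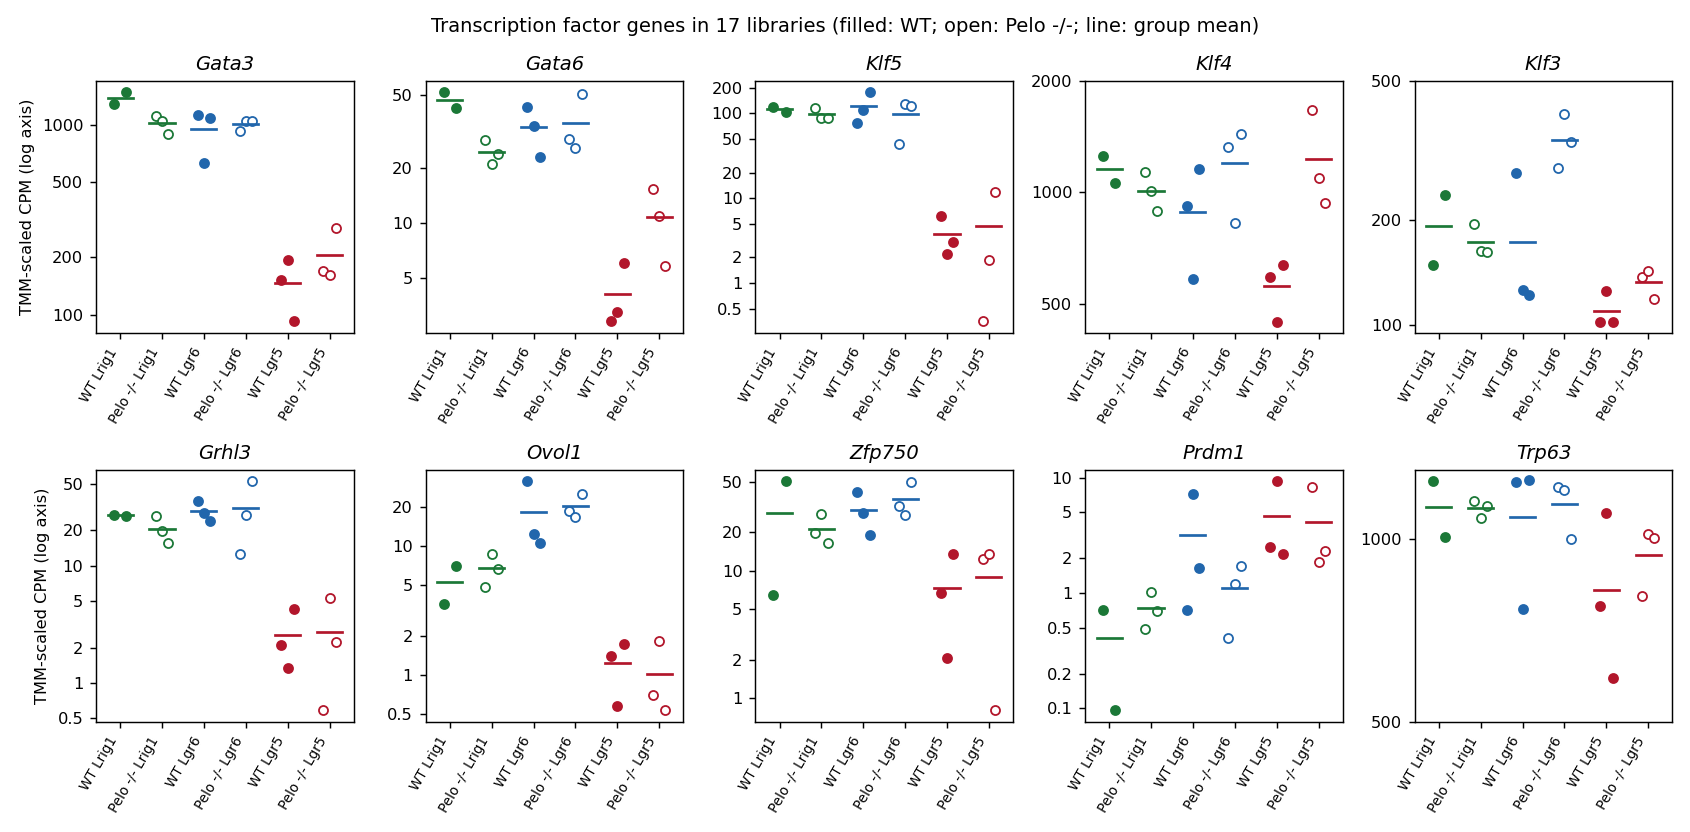
TMM-scaled CPM (log axis) of each gene in all 17 libraries, 1 point for each library, by group; filled points are WT, open points Pelo -/-, and lines are group means. For Gata3, Gata6, Klf5, Grhl3 and Ovol1 every Lrig1 and Lgr6 library lies above every Lgr5 library, and Trp63 overlaps across populations in WT.

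Gata3 (chr2:9857078-9890034, minus strand, GRCm38) encodes a zinc-finger factor needed for the inner root sheath and for barrier formation. It was at 1289.7 and 1476 CPM in WT Lrig1, 1125, 626 and 1079 CPM in WT Lgr6 and 152, 195 and 92.2 CPM in WT Lgr5. In libraries labelled Pelo -/- it was at 1105, 1049.6 and 892 CPM in Lrig1, 924, 1046 and 1050.0 CPM in Lgr6 and 169, 162 and 286 CPM in Lgr5. Every Lrig1 and Lgr6 library was above every Lgr5 library. Gata3 was 9.46-fold higher in WT Lrig1 than in WT Lgr5 (log2 3.24 ± 0.40, adjusted p = 5.75e-06) and 6.46-fold higher in WT Lgr6 (log2 2.69 ± 0.37, adjusted p = 1.69e-05). The difference was 4.94-fold in Pelo -/- Lrig1 (log2 2.30 ± 0.37, adjusted p = 0.00018) and 4.9-fold in Pelo -/- Lgr6 (log2 2.29 ± 0.37, adjusted p = 0.000139). T cells also express Gata3. Their 16 markers summed to 67.5 and 103 CPM in WT Lrig1, 61.5 to 124 CPM in WT Lgr6 and 24.3 to 36.4 CPM in WT Lgr5, and to 93.4 to 118 CPM, 63.6 to 80.2 CPM and 17.2 to 95.4 CPM in the same sorts labelled Pelo -/-. Of the 15 tested, 2 (Thy1 and Trbc1) were called higher and 0 lower in WT Lrig1 than in WT Lgr5, beside 9.09% and 1.99% of all genes. There 5 of the log2 differences were positive and 10 negative, with a median of -1.33 beside -0.99 over all genes. In WT Lgr6 against WT Lgr5, 10 were positive and 5 negative. In WT Lrig1, Cd3d was at 0 and 0.0599 CPM, Cd3e at 0.0484 to 0.240 CPM, Cd3g at 0.779 to 3.72 CPM and Trbc2, the most abundant of the list, at 36.8 to 65.8 CPM, while Tcrg-C1 was at 0. In WT Lgr6, Cd3d reached 8.17 CPM and Cd3g 24.3 CPM in the highest library. The part of T cell RNA in the Gata3 differences was not tested.

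Gata6, a factor of the sebaceous duct and of upper follicle differentiation, was much less abundant. It was at 51.7 and 42.8 CPM in WT Lrig1, 43.1, 34.1 and 22.9 CPM in WT Lgr6 and 2.91, 3.27 and 6.07 CPM in WT Lgr5. The libraries labelled Pelo -/- gave 28.6, 21.1 and 23.8 CPM in Lrig1, 29, 25.7 and 51 CPM in Lgr6 and 15.4, 11 and 5.85 CPM in Lgr5. The upper follicle libraries stood above the Lgr5 libraries in both genotypes, with a narrower gap in Pelo -/-. In WT, Gata6 was 11.5-fold higher in Lrig1 (log2 3.53 ± 0.55, adjusted p = 8.17e-05) and 8.15-fold higher in Lgr6 (log2 3.03 ± 0.51, adjusted p = 0.000176) than in Lgr5. In Pelo -/- the Lgr6 value was 3.27-fold above Lgr5 (log2 1.71 ± 0.49, adjusted p = 0.0239), and the Lrig1 difference missed the threshold (log2 1.19 ± 0.48, adjusted p = 0.137). The call in Pelo -/- Lgr6 was lost without Pelo -/- Lgr5 replicate 2 (adjusted p = 0.0663) or replicate 3 (0.115), without Pelo -/- Lgr6 replicate 3 (0.152), in a fit of the compared groups alone (0.0703) and among genes with a mean of at least 5 CPM (0.0755).

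Klf5 (chr14:99298691-99315036, plus strand), which keeps basal keratinocytes dividing, showed the widest gap of the 10. It was at 119 and 104 CPM in WT Lrig1, 76.6, 109 and 176 CPM in WT Lgr6 and 6.22, 2.18 and 3.01 CPM in WT Lgr5. Libraries labelled Pelo -/- had 117, 88.2 and 88.6 CPM in Lrig1, 43.3, 128 and 121 CPM in Lgr6 and 0.352, 1.84 and 12 CPM in Lgr5. No upper follicle library overlapped an Lgr5 library, and the Pelo -/- Lgr5 libraries were spread widely, from 6 to 223 counts. The difference was 29.4-fold in WT Lrig1 (log2 4.88 ± 0.87, adjusted p = 0.000689) and 31.7-fold in WT Lgr6 (log2 4.99 ± 0.85, adjusted p = 0.000356). It was 20.6-fold in Pelo -/- Lrig1 (log2 4.36 ± 0.82, adjusted p = 0.0019) and 20.5-fold in Pelo -/- Lgr6 (log2 4.36 ± 0.82, adjusted p = 0.00138), and both log2 differences were 6.48 without Pelo -/- Lgr5 replicate 3. Without WT Lgr6 replicate 3, the WT Lgr6 difference was 4.38.

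Klf4 (chr4:55527143-55532466, minus strand), a factor of barrier formation in the upper layers, was abundant in every library. It was at 1253 and 1062 CPM in WT Lrig1, 921, 583 and 1155 CPM in WT Lgr6 and 591, 445 and 637 CPM in WT Lgr5. In libraries labelled Pelo -/- it was at 1135, 1006 and 889.9 CPM in Lrig1, 1327, 827 and 1437 CPM in Lgr6 and 1673, 1093 and 936 CPM in Lgr5. The WT Lgr5 libraries were low and the Pelo -/- Lgr5 libraries were not. The log2 difference from Lgr5 was 1.05 ± 0.38, adjusted p = 0.0768 in WT Lrig1, and in WT Lgr6 it was 0.67 ± 0.35, adjusted p = 0.25. Among genes with a mean of at least 5 CPM these were 0.16 and -0.25. In Pelo -/- libraries the difference was smaller than its SE in both populations.

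Klf3 (chr5:64803388-64832901, plus strand), a repressor of the same family, varied more than Klf4 and less than Klf5 across the libraries on a log scale. It was at 149 and 237 CPM in WT Lrig1, 272, 126 and 123 CPM in WT Lgr6 and 102, 125 and 102 CPM in WT Lgr5. The libraries labelled Pelo -/- gave 195, 163 and 162 CPM in Lrig1, 281, 403 and 335 CPM in Lgr6 and 137, 143 and 119 CPM in Lgr5. The 3 Pelo -/- Lgr6 libraries were the highest of the 17. Klf3 was 2.55-fold higher in Pelo -/- Lgr6 than in Pelo -/- Lgr5 (log2 1.35 ± 0.35, adjusted p = 0.014), a call that was lost without Pelo -/- Lgr5 replicate 3 (adjusted p = 0.0583), without Pelo -/- Lgr6 replicate 2 (0.0640) and among genes with a mean of at least 5 CPM (0.0636). The other differences from Lgr5 missed the threshold, at 0.81 ± 0.39 in WT Lrig1, 0.66 ± 0.35 in WT Lgr6 and 0.38 ± 0.35 in Pelo -/- Lrig1, and each turned to a value at or below 0 under that stricter filter (-0.00082, -0.17 and -0.090). The exons of Klf3 share 404 bases with the opposite-strand gene Gm20033, which was at 1.75 CPM or less.

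Grhl3 (chr4:135541888-135573630, minus strand) encodes a grainyhead-like factor of barrier formation and wound closure. It was at 27.1 and 26.6 CPM in WT Lrig1, 35.4, 27.9 and 24 CPM in WT Lgr6 and 2.1, 1.35 and 4.26 CPM in WT Lgr5. Libraries labelled Pelo -/- had 26.7, 19.8 and 15.5 CPM in Lrig1, 12.5, 27.2 and 52.4 CPM in Lgr6 and 0.587, 5.25 and 2.25 CPM in Lgr5. Each upper follicle library was above each Lgr5 library. The difference was 10.4-fold in WT Lrig1 (log2 3.38 ± 0.72, adjusted p = 0.00224), 11.3-fold in WT Lgr6 (log2 3.49 ± 0.69, adjusted p = 0.000909), 7.68-fold in Pelo -/- Lrig1 (log2 2.94 ± 0.68, adjusted p = 0.00671) and 11.4-fold in Pelo -/- Lgr6 (log2 3.51 ± 0.69, adjusted p = 0.00126). Among genes with a mean of at least 5 CPM the log2 difference was 2.38 in WT Lrig1 (adjusted p = 0.0290) and 2.41 in Pelo -/- Lrig1 (adjusted p = 0.0246). Over the alternatives the edgeR or DESeq2 adjusted p in Pelo -/- Lrig1 reached 0.0452. The log2 difference in WT Lrig1 was 3.99 without WT Lgr5 replicate 3. Without Pelo -/- Lgr5 replicate 2 it was 3.85 in Pelo -/- Lrig1 and 4.42 in Pelo -/- Lgr6, and without Pelo -/- Lgr6 replicate 3 it was 2.87 in Pelo -/- Lgr6.

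Ovol1 (chr19:5549136-5560646, minus strand), a zinc-finger repressor that helps progenitors stop dividing, had its highest levels in Lgr6 libraries. It was at 3.54 and 7.06 CPM in WT Lrig1, 31.8, 12.3 and 10.5 CPM in WT Lgr6 and 1.42, 0.577 and 1.75 CPM in WT Lgr5. In libraries labelled Pelo -/- it was at 4.8, 8.75 and 6.62 CPM in Lrig1, 18.5, 16.9 and 25.4 CPM in Lgr6 and 0.704, 1.84 and 0.537 CPM in Lgr5. The populations did not overlap in either genotype, with Lgr6 above Lrig1 and Lrig1 above Lgr5. The difference of Lrig1 from Lgr6 was not called in WT (log2 -1.78 ± 0.80) or in Pelo -/- (-1.59 ± 0.69). Against Lgr5, Ovol1 was 14.5-fold higher in WT Lgr6 (log2 3.86 ± 0.76, adjusted p = 0.000844; 3.17 without WT Lgr6 replicate 1) and 19.8-fold higher in Pelo -/- Lgr6 (log2 4.30 ± 0.78, adjusted p = 0.000524; 5.01 without Pelo -/- Lgr5 replicate 2). The Lrig1 difference was called in Pelo -/- (log2 2.71 ± 0.73, adjusted p = 0.0202) and missed the threshold in WT (log2 2.08 ± 0.76, adjusted p = 0.0784). The Pelo -/- Lrig1 call was lost without Pelo -/- Lgr5 replicate 1 (adjusted p = 0.0619) or replicate 3 (0.0931), without Pelo -/- Lrig1 replicate 2 (0.0726) and in a fit of the compared groups alone (0.0775). Its log2 difference ranged from 2.24 among genes with a mean of at least 5 CPM to 3.42 without Pelo -/- Lgr5 replicate 2. The opposite-strand pseudogene Gm31166 shares 690 bases with the exons of Ovol1, 19.8% of them, and was at 0.77 CPM or less. The sources used here do not state whether counting used strand.

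Zfp750 (chr11:121510978-121519333, minus strand), a target of p63 that promotes late differentiation, was not called in any comparison. It was at 6.47 and 50.3 CPM in WT Lrig1, 41.6, 28.3 and 19.1 CPM in WT Lgr6 and 6.62, 2.05 and 13.4 CPM in WT Lgr5. The libraries labelled Pelo -/- gave 19.6, 27.7 and 16.5 CPM in Lrig1, 32.2, 27.1 and 49.7 CPM in Lgr6 and 12.4, 13.5 and 0.805 CPM in Lgr5. The WT Lrig1 libraries differed widely, and the lower one lay within the WT Lgr5 range. The log2 difference from Lgr5 was 1.95 ± 0.86, adjusted p = 0.142 in WT Lrig1, and -0.25 without WT Lrig1 replicate 2. It was 2.01 ± 0.80, adjusted p = 0.117 in WT Lgr6, 1.25 ± 0.78, adjusted p = 0.332 in Pelo -/- Lrig1 and 2.03 ± 0.80, adjusted p = 0.119 in Pelo -/- Lgr6. Without a filter on low counts the WT Lrig1, WT Lgr6 and Pelo -/- Lgr6 differences passed, at adjusted p = 0.0295, 0.0298 and 0.0351.

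Prdm1 (chr10:44437177-44528501, minus strand), which encodes BLIMP1, a repressor linked to terminal differentiation and the sebaceous gland, was scarce in every group. It was at 0.719 and 0.0967 CPM in WT Lrig1, 0.716, 7.21 and 1.66 CPM in WT Lgr6 and 2.5, 9.29 and 2.19 CPM in WT Lgr5. Libraries labelled Pelo -/- had 0.491, 1.03 and 0.701 CPM in Lrig1, 0.41, 1.19 and 1.7 CPM in Lgr6 and 8.22, 1.84 and 2.31 CPM in Lgr5. Lrig1 libraries were below Lgr5 libraries in both genotypes, on 2 to 17 counts in a Lrig1 library. The log2 difference from Lgr5 was -3.51 ± 1.33, adjusted p = 0.0901 in WT Lrig1 and -2.47 ± 1.07, adjusted p = 0.167 in Pelo -/- Lrig1. DESeq2 called both, at adjusted p = 0.0027 and 0.0275. Over the alternatives the WT value ranged from -5.39 (without WT Lrig1 replicate 1) to -2.55 (without WT Lgr5 replicate 2), with adjusted p up to 0.454. The Pelo -/- value ranged from -2.82 (without Pelo -/- Lgr5 replicate 2) to -1.48 (without replicate 1 of that group), with adjusted p up to 0.386. In Lgr6 the difference was -1.90 ± 1.05, adjusted p = 0.261 in Pelo -/- and smaller than its SE in WT.

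Trp63 (chr16:25683763-25892102, plus strand) encodes p63, the factor that sets up and keeps the basal layer of stratified epithelia. It was at 1249 and 1008 CPM in WT Lrig1, 1243, 767 and 1255 CPM in WT Lgr6 and 776, 1106 and 589 CPM in WT Lgr5. In libraries labelled Pelo -/- it was at 1155, 1086 and 1137 CPM in Lrig1, 1221, 1208 and 999.6 CPM in Lgr6 and 807, 1019.9 and 1003 CPM in Lgr5. Its libraries overlapped between populations in WT, and it was the least variable of the 10. In Pelo -/- the Lrig1 libraries, at 1086 to 1155 CPM, all lay above the Lgr5 libraries, at 807 to 1019.9 CPM. The log2 difference from Lgr5 was 0.45 ± 0.36, adjusted p = 0.377 in WT Lrig1 and 0.40 ± 0.33, adjusted p = 0.466 in WT Lgr6, with 95% intervals of -0.29 to 1.20 and -0.27 to 1.07, and both turned negative among genes with a mean of at least 5 CPM (-0.31 and -0.38). In Pelo -/- libraries the difference was smaller than its SE in both populations. The table counts whole genes, so the p63 isoforms were not told apart.

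**Figure D3:**
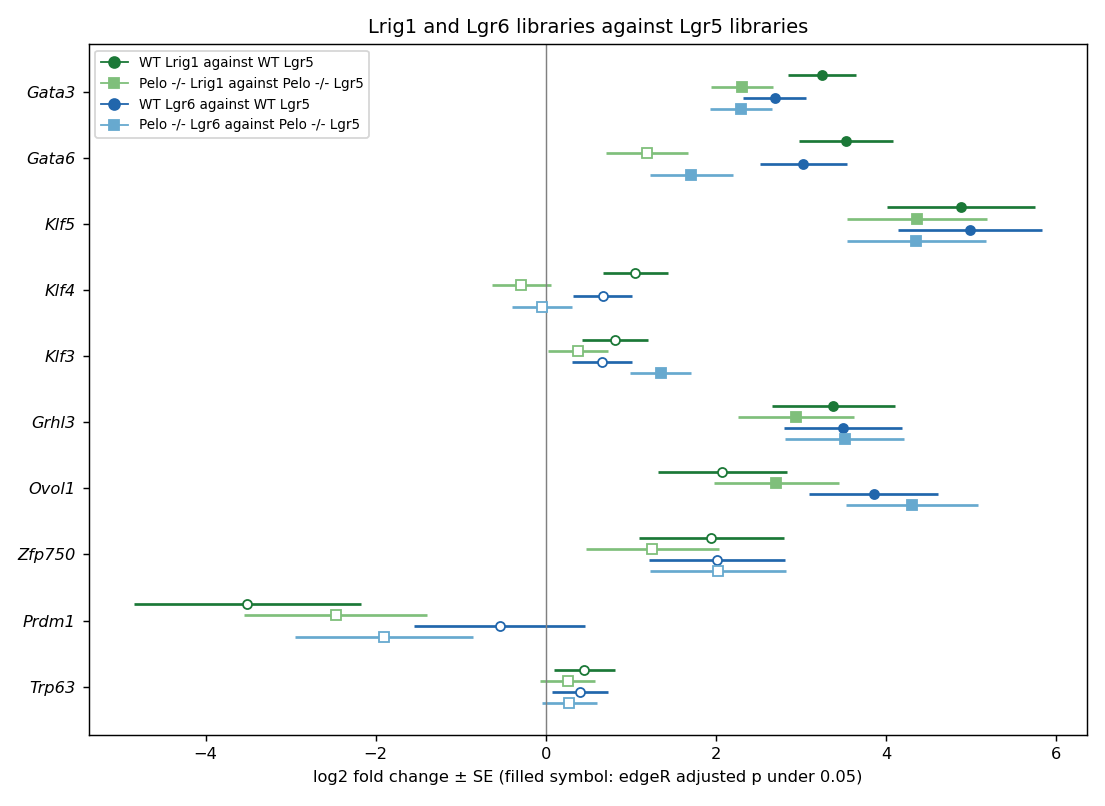
Log2 differences (± SE) of the 10 genes for Lrig1 and Lgr6 libraries against Lgr5 libraries of the same genotype, with filled symbols for an edgeR adjusted p under 0.05. Filled symbols lie to the right of 0 for Gata3, Gata6, Klf5, Grhl3, Ovol1 and Klf3, while Klf4, Zfp750, Prdm1 and Trp63 have open symbols only.

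Lrig1 and Lgr6 libraries were also compared with each other, since both are upper follicle sorts. Of the 10 genes 0 were called in WT and 0 in Pelo -/-, beside 0% of all genes in both comparisons by edgeR, and DESeq2 also called 0 of the 10 in each. At an unadjusted p under 0.05 there were 2 of the 10 and 1420 of all genes in WT, and 2 of the 10 and 1277 of all genes in Pelo -/-, while DESeq2 called 54 and 63 genes in all. The 2 in WT were Ovol1 (log2 -1.78 ± 0.80, adjusted p = 1) and Prdm1 (-2.97 ± 1.30, adjusted p = 1), both lower in Lrig1. In Pelo -/- they were Ovol1 (-1.59 ± 0.69, adjusted p = 1) and Klf3 (-0.97 ± 0.35, adjusted p = 1). The 95% interval of the difference was -0.25 to 1.35 for Gata3 and -0.70 to 0.80 for Trp63 in WT, so a change of the size seen against Lgr5 lay outside the interval for Gata3. For Klf5 and Grhl3 the WT intervals were -1.74 to 1.53 and -1.56 to 1.32.

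Within each population, libraries labelled Pelo -/- were compared with WT to ask whether loss of Pelota moved these factors. In Lrig1, Lgr6 and Lgr5, 0 of the 10 genes were called by edgeR and 0 by DESeq2. Beside this, edgeR called 0% of all genes in Lrig1, 0% in Lgr6 and 0.0197% in Lgr5 (6 genes, all higher), and DESeq2 called 31, 17 and 174 genes, the last with 79 higher and 95 lower. Without WT Lgr5 replicate 3, edgeR called 4 higher and 5 lower in Lgr5. At an unadjusted p under 0.05 there were 0, 1 and 2 of the 10 genes, and 1106, 1180 and 1901 of all genes. Klf4 in Lgr5 had the smallest p: the 3 libraries labelled Pelo -/- Lgr5 lay above the 3 WT Lgr5 libraries, by 2.21-fold (log2 1.15 ± 0.35, adjusted p = 0.47). Gata6 in Lgr5 was at a log2 difference of 1.39 ± 0.49, adjusted p = 0.589, and its libraries touched, since the lowest labelled Pelo -/- was below the highest WT. Klf3 in Lgr6 was at 0.97 ± 0.35, adjusted p = 1, with the 3 libraries labelled Pelo -/- above the 3 WT libraries.

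For the remaining genes the genotype differences were small or uncertain. Gata3 was at -0.45 ± 0.39 in Lrig1, 0.09 ± 0.35 in Lgr6 and 0.49 ± 0.35 in Lgr5, with a 95% interval in Lgr6 of -0.63 to 0.81. Trp63 was within 1 SE of 0 in all 3 populations, and its intervals were -0.75 to 0.75, -0.60 to 0.74 and -0.48 to 0.87. The intervals were wide for the scarcer genes: in Lgr5, Klf5 spanned -1.19 to 1.84, Grhl3 -1.27 to 1.39 and Prdm1 -2.24 to 1.89. Gata6 in Lrig1 was at -0.95 ± 0.52, adjusted p = 1, with both WT libraries above the 3 labelled Pelo -/-.

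The genotype differences were then compared between populations, in 3 interaction terms of the same fit. Of the 10 genes 0 were called in each, beside 0% of all genes by edgeR, and DESeq2 called 0 of the 10 and 62, 56 and 50 genes in all. At an unadjusted p under 0.05 there were 2, 0 and 1 of the 10 genes, and 1613, 1454 and 1278 of all genes. The difference between the Lrig1 and Lgr5 effects was -2.34 ± 0.71, adjusted p = 0.803 for Gata6 and -1.34 ± 0.52, adjusted p = 0.907 for Klf4. Between Lrig1 and Lgr6 it was -1.12 ± 0.52, adjusted p = 1 for Klf3. The calls against Lgr5 that were made in 1 genotype alone are therefore not shown to differ by genotype: the terms were -2.34 ± 0.71, adjusted p = 0.803 for Gata6 in Lrig1, 0.63 ± 1.04, adjusted p = 0.995 for Ovol1 in Lrig1 and 0.69 ± 0.49, adjusted p = 1 for Klf3 in Lgr6.

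**Figure D4:**
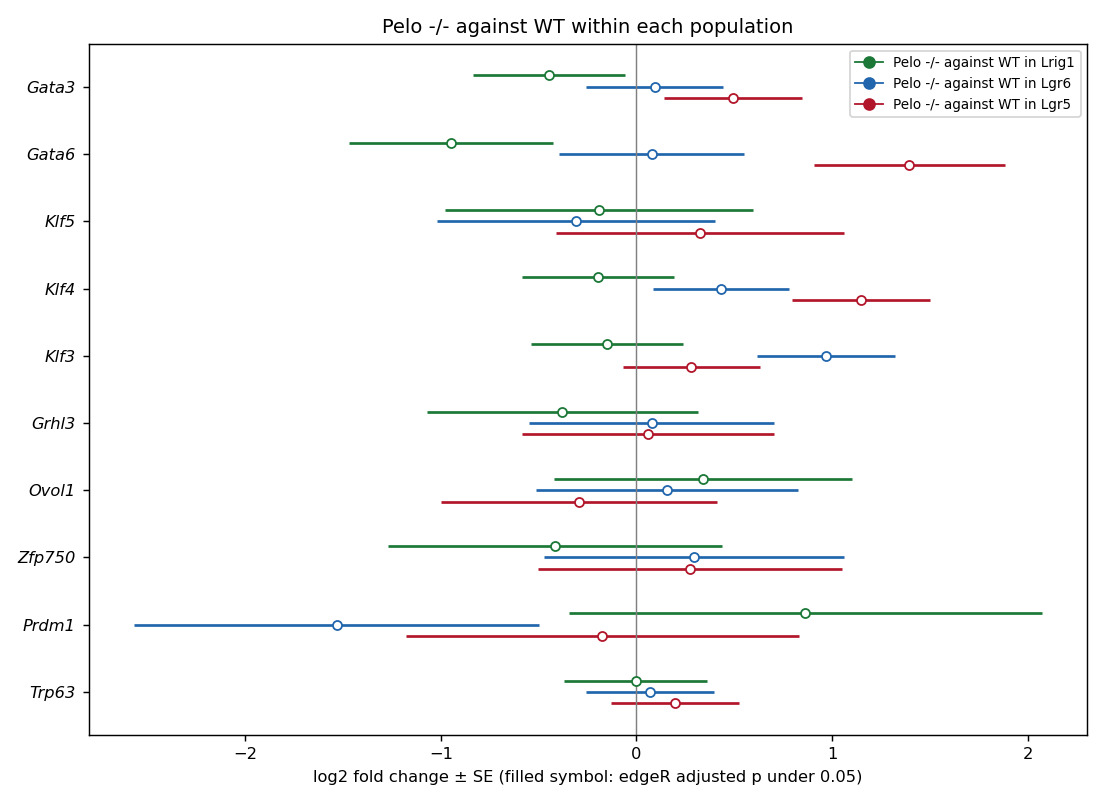
Log2 differences (± SE) between libraries labelled Pelo -/- and WT for the 10 genes in the Lrig1, Lgr6 and Lgr5 populations. All symbols are open because 0 passed an edgeR adjusted p under 0.05; Klf4 and Gata6 in Lgr5 and Klf3 in Lgr6 lie farthest above 0 relative to their SE.

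Other genes of the same pathways were read from lists of related genes. These lists were also written with earlier results of these data known, so their counts describe the lists and test nothing independently. Of 35 genes of terminal differentiation, 18 were called higher and 0 lower in WT Lrig1 than in WT Lgr5, and 20 higher and 0 lower in WT Lgr6. In Pelo -/- libraries the counts were 15 higher and 0 lower in both populations. Over all genes, 9.09% were called higher and 1.99% lower in WT Lrig1, 10.6% and 1.57% in WT Lgr6, 5.77% and 2.08% in Pelo -/- Lrig1, and 7.23% and 2.72% in Pelo -/- Lgr6. The median of the list was 2.37 in WT Lrig1, 2.71 in WT Lgr6, 2.24 in Pelo -/- Lrig1 and 2.27 in Pelo -/- Lgr6, beside the medians over all genes given above. Casp14, a protease of the cornified layer, was at 7.40 ± 0.84, adjusted p = 3.26e-06 in WT Lrig1, and Acer1, an alkaline ceramidase, at 6.90 ± 0.75, adjusted p = 1.2e-06 in WT Lgr6. Pkp1, a desmosomal plakophilin, led the list in Pelo -/- Lgr6 at 3.09 ± 0.36, adjusted p = 2.59e-06. The list summed to 6014.5 to 16976.5 CPM in the Lrig1 and Lgr6 libraries and to 461 to 1043 CPM in the Lgr5 libraries, and those ranges did not overlap. Its most abundant genes were Krtdap and Krt10, at means of 4505 and 1785 CPM in WT Lrig1 and 4262.5 and 1717 CPM in WT Lgr6. The Lrig1 and Lgr6 libraries thus held much RNA of differentiating keratinocytes.

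The list of 14 upper follicle genes includes Lrig1 and Lgr6, the loci that name the upper follicle sorts. Against Lgr5, 7 were called higher in WT Lrig1, 8 in WT Lgr6, 3 in Pelo -/- Lrig1 and 5 in Pelo -/- Lgr6. Each of the Lgr6 counts includes 1 of these 2 loci, so those counts are not independent of the sorting, and the Lrig1 counts include 0. Over all genes the shares called higher were 9.09%, 10.6%, 5.77% and 7.23%. In each comparison 1 of the 14 was called lower, beside 1.99%, 1.57%, 2.08% and 2.72% of all genes. Aldh3a1, an aldehyde dehydrogenase, was at 3.96 ± 0.53, adjusted p = 1.29e-05 in WT Lrig1 and 3.82 ± 0.50, adjusted p = 1e-05 in WT Lgr6. Plet1, a surface protein of the upper follicle, was at 4.24 ± 0.59, adjusted p = 1.9e-05 in WT Lgr6. The gene called lower was Fst, which encodes the activin inhibitor follistatin, at -2.11 ± 0.38, adjusted p = 0.000732 in Pelo -/- Lrig1.

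The list of 21 basal, adhesion and p63-linked genes gave 8 higher and 1 lower in WT Lrig1, 9 and 1 in WT Lgr6, 5 and 1 in Pelo -/- Lrig1, and 7 and 1 in Pelo -/- Lgr6. Of all genes 9.09%, 10.6%, 5.77% and 7.23% were called higher there and 1.99%, 1.57%, 2.08% and 2.72% lower, and 1 lower of 21 is near that background. Krt14, a keratin of basal cells, was at 4.43 ± 0.48, adjusted p = 1.36e-06 in WT Lrig1, while Trp63 itself was at 0.45 ± 0.36. Sfn, which encodes 14-3-3 sigma, was at 4.91 ± 0.48, adjusted p = 2.46e-07 in WT Lgr6. Egfr, the EGF receptor, was the gene called lower, at -1.02 ± 0.33, adjusted p = 0.0431 in WT Lgr6; it is named here after its values were seen. In the genotype comparisons this list held the only call among the 6 lists of related genes: Itga3, an integrin subunit that binds laminin, was at 2.13 ± 0.38, adjusted p = 0.0457 in libraries labelled Pelo -/- Lgr5 against WT. In a fit of those groups alone 0 genes were called, so this call was lost there, and with the replicate number as a block 2 genes were called in all.

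Other epidermal transcription factors were read from a list of 28. In WT, 9 were called higher and 1 lower in Lrig1, and 10 and 1 in Lgr6, each against Lgr5. In Pelo -/- the counts were 9 and 2 in Lrig1, and 9 and 1 in Lgr6. The shares of all genes called higher were 9.09% and 10.6% in WT and 5.77% and 7.23% in Pelo -/-, and those called lower 1.99%, 1.57%, 2.08% and 2.72%. Satb1, a chromatin organiser, was at 3.09 ± 0.49, adjusted p = 0.000112 in WT Lrig1 and 2.90 ± 0.47, adjusted p = 0.0001 in WT Lgr6. Pou3f1, a POU factor of keratinocytes, led in Pelo -/- libraries, at 3.65 ± 0.43, adjusted p = 4.67e-06 in Lrig1 and 4.27 ± 0.44, adjusted p = 5.57e-07 in Lgr6. Bnc1, which encodes basonuclin, was among those called lower, at -2.30 ± 0.41, adjusted p = 0.00042 in Pelo -/- Lgr6. Of 37 relatives of the 10 genes in the same families, 4 were called higher and 2 lower in WT Lrig1, 4 and 2 in WT Lgr6, 2 and 2 in Pelo -/- Lrig1, and 5 and 3 in Pelo -/- Lgr6. The count of 4 in WT Lrig1 is near the 9.09% of all genes called higher there, and nothing is read from it about the families. Among the relatives, Klf13 was at 2.92 ± 0.39, adjusted p = 1.37e-05 in WT Lrig1, and Trp53, which encodes p53, at 3.54 ± 0.44, adjusted p = 4.79e-06 in WT Lgr6.

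The genes whose pattern was most like each factor were found by the root mean square difference of centred log2 CPM over the 17 libraries, among about 7670 genes. For Gata3 they were Myl12b (0.32) and Exosc7 (0.33), against a median of 1.18 over the genes compared, and for Gata6 Akr1b3 (0.47) and Rpl7l1 (0.49). For Klf5 they were Pls1 (0.70) and Gna14 (0.81), for Klf4 C1d (0.31) and Sdcbp (0.32), and for Klf3 Ankrd40 (0.32) and Mbd2 (0.32). For Grhl3 they were Trim62 (0.56) and Adamts14 (0.64), for Ovol1 Lypd3 (0.79) and Blmh (0.80), and for Zfp750 Dlgap5 (0.72) and Zdhhc3 (0.75). For Prdm1 they were Trp73 (0.83) and Fjx1 (0.96), and for Trp63 Stt3b (0.17) and Ddx5 (0.17). Among the 10 genes the closest were Klf4 and Trp63 (0.48), and Gata3 was nearest to Gata6 (0.71). A steady gene such as Trp63 lies close to many others on this measure, so the values describe these libraries only.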

How the data were processed

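RNA was measured in 17 libraries of sorted epidermal cells. The authors deposited 1 table of whole-number counts per gene, and the submitters' processing notes name STAR, edgeR, GRCm38 and mm10. The sources used here do not name the counting tool, its use of strand or the annotation. Gene identifiers were matched to GENCODE M21 (48058 of 48820, ignoring versions). Depth was 9647507 to 28098841 counts per library. The raw counts were fitted once in edgeR 4.0.16 (R 4.3.3, quasi-likelihood, robust, TMM scaling, filterByExpr with a minimum count of 10 and total of 15; 30405 genes), with 1 coefficient per group and 12 comparisons, and p-values were adjusted by Benjamini-Hochberg over all genes in each. A gene was called at an adjusted p under 0.05. The SE is the log2 difference over the square root of F. Levels per kb use the union of exons. DESeq2 1.42.0, RLE scaling, other filters, a replicate block, fits of the compared groups alone and leaving out each library were alternatives. All 10 genes are described. Up to 4 genes of each list could be named, by the smallest p, and for each factor the 2 genes of most similar pattern whose mean log2 CPM (prior count 1) reached 3. Some genes that this rule names are not reported here. The genes and lists were chosen with earlier results of these data known.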

Additional observations from a re-analysis of the deposited data

How the results depend on the processing

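Of 19 calls of the 10 genes, 16 held under each alternative run and 3 were lost under some (Gata6 and Klf3 in Pelo -/- Lgr6, Ovol1 in Pelo -/- Lrig1, each against Lgr5). The number of the 10 genes called ranged from 4 to 5 (WT Lrig1, reported 4), 3 to 5 (Pelo -/- Lrig1, 4), 5 to 6 (WT Lgr6, 5) and 4 to 7 (Pelo -/- Lgr6, 6), and was 0 in the other 8 comparisons under each alternative. Among values not called, a filter at a mean of 5 CPM gave Klf3 -0.00082 in WT Lrig1, -0.0897 in Pelo -/- Lrig1 and -0.174 in WT Lgr6, Trp63 -0.307 in WT Lrig1 and -0.381 in WT Lgr6, and Klf4 -0.252 in WT Lgr6, all turned from positive; Zfp750 in WT Lrig1 was -0.245 without WT Lrig1 replicate 2, the lowest of its leave-one-out values, whose highest was 2.95. That filter moved the median over all genes from -0.99 to -0.057 in WT Lrig1 and from -0.49 to -0.038 in WT Lgr6, while RLE scaling moved it to -1.36 and -0.996. Another 59 values lay within 1 SE of 0, and 21 of them changed sign under an alternative that keeps all libraries. When a library was left out, 43 of the 59 changed sign.

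The calls over all genes, higher and lower, were, each against Lgr5, 2765 and 604 (WT Lrig1), 1753 and 633 (Pelo -/- Lrig1), 3236 and 477 (WT Lgr6), and 2198 and 828 (Pelo -/- Lgr6). At a mean of 5 CPM they were 1750 and 1412, 1354 and 1190, 1941 and 1725, and 1588 and 1544, under RLE 2117 and 946, 1473 and 752, 2158 and 979, and 1823 and 1048, and in DESeq2 2803 and 4403, 2293 and 2182, 2995 and 3157, and 2613 and 2500. Fits of the compared groups alone gave 2152 calls in WT Lrig1 and 2409 in WT Lgr6. Totals moved by over 1.5 times without WT Lrig1 replicate 1 (2132) or 2 (1294), Pelo -/- Lgr5 replicate 2 (1550), Pelo -/- Lrig1 replicate 1 (1366) or 2 (1476), WT Lgr6 replicate 3 (1932) or Pelo -/- Lgr6 replicate 1 (1990). The 6 genotype calls in Lgr5 became 174 in DESeq2 (79 higher, 95 lower), 80 with no filter (52 and 28), 3 without 7 predicted genes (an alternative chosen after seeing the data), 2 with the block, 0 in the compared groups alone, 9 without WT Lgr5 replicate 3 (4 and 5), 16 without WT Lgr5 replicate 2 and 20 without Pelo -/- Lgr5 replicate 3. With no filter, genotype calls were 5 in Lrig1 and 1 in Lgr6, the interactions 25, 28 and 18, and Pelo -/- Lrig1 against Lgr6 14 (0 in the fit of all groups, 13 in those groups alone, 1 with the block).

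Pairing by replicate number was not seen: deviations of same-numbered libraries correlated at -0.24 to 0.25, with a median of -0.0026 and 3 of 40 over 0.1, and 5 libraries correlated best with their own number. Deviations from a mean of 2 or 3 libraries sum to 0 within a group, so these correlations cannot show whether animals or batches were shared. With replicate number as a block, the same counts of the 10 genes were called in each comparison (4, 4, 5 and 6 against Lgr5), and totals over all genes were 3117, 2342, 3692 and 2891. The cause of these shifts was not tested. Prdm1 rested on as few as 2 counts in a library and Klf5 in Lgr5 libraries on as few as 6. Replicates differed by at least 38.5 times counting noise over genes (chi-square per degree of freedom).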

Other observations

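The sebaceous gland lies beside the upper follicle sorts, and its genes were read as a further list of 15. Against Lgr5, 3 were called higher in WT Lrig1, 3 in WT Lgr6, 2 in Pelo -/- Lrig1 and 2 in Pelo -/- Lgr6, and 0 were called lower. Of all genes 9.09%, 10.6%, 5.77% and 7.23% were called higher there and 1.99%, 1.57%, 2.08% and 2.72% lower. Scd1, a stearoyl-CoA desaturase, was at 2.21 ± 0.45, adjusted p = 0.00129 in WT Lrig1 and 2.95 ± 0.43, adjusted p = 6.87e-05 in Pelo -/- Lrig1. The list summed to 278 to 590 CPM in the Lrig1 and Lgr6 libraries and to 105 to 165 CPM in the Lgr5 libraries.

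Counts of each factor were also set against Trp63 counts in the same library, which removes the scaling between libraries. This ratio was chosen after the values were seen and was not tested. Gata3 counts were 103% and 146% of Trp63 counts in WT Lrig1, 81.6% to 90.5% in WT Lgr6 and 15.6% to 19.5% in WT Lgr5. In libraries labelled Pelo -/- Lgr5 they were 15.9% to 28.5%. Klf5 counts were 9.55% and 10.4% of Trp63 counts in WT Lrig1, 6.16% to 14.2% in WT Lgr6 and 0.197% to 0.802% in WT Lgr5. Klf4 overlapped between populations on this scale, at 100.3% and 105% in WT Lrig1 and 40.3% to 108% in WT Lgr5, with 93.3% to 207% in libraries labelled Pelo -/- Lgr5. Klf3 was at 23.05% to 33.6% in libraries labelled Pelo -/- Lgr6 and at 9.77% to 21.9% in WT Lgr6.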
